A study of Homo sapiens with 18 samples.

Results

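The genes described here are 45 human genes of the lysosome: hydrolytic enzymes, activator proteins, membrane proteins, subunits of the proton pump and the transcription factors TFEB and TFE3. They were chosen by symbol from a list of lysosomal genes after DNASE2, the lysosomal deoxyribonuclease, had been seen among the genes most raised by decitabine (DAC) in MOLM-13 cells. No cut-off on that change was given. Of the 45 genes, 42 were listed for HL-60 (of 17110 genes in all) and 43 for MOLM-13 (of 17475), and all of these passed the filter on low values. LGMN and SGSH were not listed for either line and TFEB was not listed for HL-60, so these are not analysed here.

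Total RNA was sequenced from HL-60 and MOLM-13, 2 established human cell lines of acute myeloid leukaemia, after 48 h (day 2) in culture with the solvent dimethyl sulfoxide (DMSO), with DAC or with the code-named compound NTX-301. There were 18 samples: 3 replicates in every one of the 6 groups. HL-60 is known as a promyelocytic line, and MOLM-13 as a line with monocytic features and a KMT2A fusion. The labels give a concentration of 30 nM in the HL-60 cultures and 15 nM in the MOLM-13 cultures, and their wording does not settle whether this applies to both drugs or to DAC alone. Dose and line therefore cannot be told apart, and it is not known whether the drugs were given at matched doses. The replicates are described as triplicate wells, so p-values measure the spread between wells.

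The lysosome is an acidic organelle in which enzymes take apart proteins, nucleic acids, sugars and lipids that arrive by endocytosis, phagocytosis or autophagy. Its lumen is acidified by a proton pump, the V-ATPase, and its enzymes are among the most abundant products of monocytes and macrophages. Many lysosomal genes carry the palindrome CACGTG, within the longer CLEAR element, in their promoters, and TFEB and TFE3 are transcription factors known to bind it. DAC is a cytidine analogue that is built into DNA and traps DNA methyltransferases.

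Promoter sequences were taken from RefSeq (GRCh38.p14) as the 250 bases before each annotated start, and 33 of the 45 genes had an entry (48 windows). The promoter of DNASE2, the gene on which the choice turned, spans chr19:12881450-12881699 on the minus strand. It is shown with each CG in capitals, since CG is the dinucleotide that DNA methyltransferases act on.
DNASE2: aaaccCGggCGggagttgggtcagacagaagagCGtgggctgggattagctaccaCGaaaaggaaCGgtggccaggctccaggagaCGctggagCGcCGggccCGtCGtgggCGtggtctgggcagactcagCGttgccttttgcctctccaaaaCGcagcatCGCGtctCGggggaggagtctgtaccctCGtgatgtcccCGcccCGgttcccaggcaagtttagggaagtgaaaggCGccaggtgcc
It held 20 CG dinucleotides, and 32.4% of the 35116 windows in the table held at least as many. The median was 22 over the members' windows and 11 over all windows. It held no CACGTG. That palindrome, which reads the same on both strands, was found in any window of 9 of the 33 members (27.3%), against 7.73% of the 27305 genes in the table. By window it was found in 10 of the 48 (20.8%) and in 6.34% of all windows of that length. The longer TCACGTGA, which contains it, was found in 5 members (15.2%, against 1.04% of genes) and in 5 of their windows (10.4%, against 0.854% of all windows). The next 5 promoters show CACGTG in capitals. LAMP1, ATP6V0D1, CLN3 and CD63 are the genes with the palindrome among those that the rule for genes described sample by sample named, and CTSD was added after its values were seen because it was higher with both drugs in both lines. LAMP1 lies at chr13:113296989-113297238 (plus strand), ATP6V0D1 at chr16:67481158-67481407 (minus), CLN3 at chr16:28492075-28492324 (minus), CD63 at chr12:55729010-55729259 (minus) and CTSD at chr11:1763928-1764177 (minus).
LAMP1: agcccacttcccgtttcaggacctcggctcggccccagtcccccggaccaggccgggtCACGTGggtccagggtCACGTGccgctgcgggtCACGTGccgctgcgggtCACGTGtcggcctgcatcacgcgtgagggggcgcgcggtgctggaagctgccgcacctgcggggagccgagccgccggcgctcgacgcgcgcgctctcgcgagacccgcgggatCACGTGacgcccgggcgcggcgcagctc
ATP6V0D1: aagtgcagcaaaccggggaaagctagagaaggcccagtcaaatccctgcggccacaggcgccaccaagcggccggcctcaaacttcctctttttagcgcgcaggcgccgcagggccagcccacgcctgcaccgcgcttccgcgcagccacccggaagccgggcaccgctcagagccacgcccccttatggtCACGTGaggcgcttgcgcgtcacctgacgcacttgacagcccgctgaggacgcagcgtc
CLN3: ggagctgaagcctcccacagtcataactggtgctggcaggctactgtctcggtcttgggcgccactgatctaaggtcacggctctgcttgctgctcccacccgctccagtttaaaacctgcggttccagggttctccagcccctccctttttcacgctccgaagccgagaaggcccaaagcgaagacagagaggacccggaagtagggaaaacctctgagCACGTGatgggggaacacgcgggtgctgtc
CD63: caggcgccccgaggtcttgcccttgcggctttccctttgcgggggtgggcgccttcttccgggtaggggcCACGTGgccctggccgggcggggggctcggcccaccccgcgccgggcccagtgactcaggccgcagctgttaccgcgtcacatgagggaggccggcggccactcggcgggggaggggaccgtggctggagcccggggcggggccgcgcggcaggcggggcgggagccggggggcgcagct
CTSD: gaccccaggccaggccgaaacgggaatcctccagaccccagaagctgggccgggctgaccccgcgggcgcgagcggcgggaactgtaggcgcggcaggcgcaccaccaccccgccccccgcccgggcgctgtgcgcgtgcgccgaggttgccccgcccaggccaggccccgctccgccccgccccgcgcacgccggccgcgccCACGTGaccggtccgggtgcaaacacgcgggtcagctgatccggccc
LAMP1 held 5 copies, the first starting 192 bases before the start. The single copies of ATP6V0D1, CLN3, CD63 and CTSD began 59, 30, 180 and 47 bases before it. CD63 had several annotated starts, and of its windows only the one shown held CACGTG. The medians of members with and without CACGTG had no single order. With NTX-301 in MOLM-13 the median log2 change from DMSO was 0.10 over the 9 members with it and 0.077 over the 24 without it. Each other comparison with DMSO had the lower median among the 9 members with CACGTG. For NTX-301 in HL-60 that median was -0.020, against 0.087 over the 23 tested without CACGTG. DAC gave 0.017 against 0.051 (HL-60 cultures), then 0.079 against 0.14 (MOLM-13 cultures). Members without CACGTG include DNASE2, the gene behind the choice. These are descriptions of sequence and of medians, with no test.

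All values are the deposited log2 values, in which a difference of 1 is a doubling. The lines appear to have been normalized apart, so levels are compared within a line and not between lines or between genes. Read depth is unknown from these values. Genes of low level are compressed towards their mean: in HL-60 the median spread (highest minus lowest of 9 samples) was 0.020 where the gene's mean lay between 0 and 3, against 0.21 where it lay between 8 and 12, and in MOLM-13 it was 0.027 against 0.26. All 6 granulocyte precursor markers, such as MPO and ELANE, were listed in both lines. Of 9 monocyte and macrophage markers, 3 were listed for HL-60 (CSF1R, LYZ and ITGAM) and 4 for MOLM-13 (these with VCAN), while CD14, FCGR3A, CD163, MRC1 and FCN1 were listed for neither. FLT3, HOXA9 and MEIS1 were listed for MOLM-13, and of these only FLT3 for HL-60.

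DNASE2, which cuts DNA in the acidic lumen, was the member with the highest change against DMSO with both drugs in HL-60, samples that the choice did not use. In HL-60 its log2 values were 7.37, 7.47 and 7.44 with DMSO, 7.89, 7.85 and 7.91 with DAC, and 8.12, 8.14 and 8.06 with NTX-301. The 3 groups did not overlap, and each NTX-301 sample lay above each DAC sample. DAC raised it by 0.46 ± 0.040 (log2 change ± SE of limma, n = 3 per group; adjusted p = 2.75e-06), a 1.37-fold change. NTX-301 raised it by 0.68 ± 0.040, 1.60-fold (adjusted p = 2.23e-08). NTX-301 stood above DAC by 0.22 ± 0.040 (adjusted p = 0.00088).

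In MOLM-13 the log2 values of DNASE2 were 8.96, 8.87 and 9.13 with DMSO, 10.17, 10.13 and 10.13 with DAC, and 9.68, 9.68 and 9.66 with NTX-301. The groups again did not overlap, but here each DAC sample lay above each NTX-301 sample. The DAC difference of 1.15 ± 0.058 (2.22-fold) is what led to the choice of these genes and is given without a test. With NTX-301 the difference from DMSO was 0.68 ± 0.058 (n = 3 per group), also given without a test because the choice used the same 3 DMSO samples. NTX-301 lay 0.47 below DAC (log2 change -0.47 ± 0.058, no test). Between the lines the change with NTX-301 differed by 0.00 (95% interval from -0.15 to 0.16). With DAC the change was 0.70 ± 0.073 larger in MOLM-13, also given without a test, and the opposite order of the drugs in the 2 lines was not tested.

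**Figure D1:**
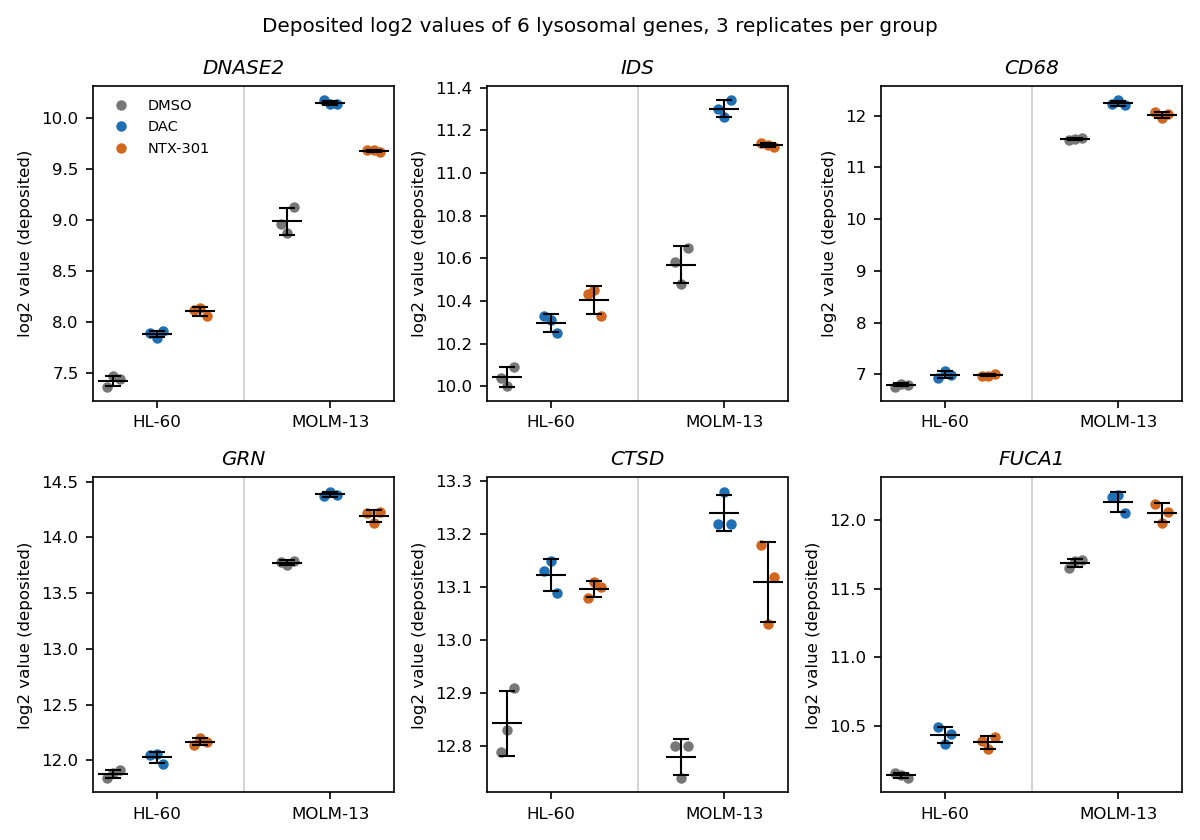
Deposited log2 values (vertical axis) of DNASE2, IDS, CD68, GRN, CTSD and FUCA1 in every sample of HL-60 and MOLM-13, coloured by DMSO, DAC and NTX-301. Points are replicates, the wide tick is the mean and the bar is the SD (n = 3). All 6 genes are higher with either drug than with DMSO in both lines without overlap, and DNASE2 is highest with NTX-301 in HL-60 and with DAC in MOLM-13.

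The plot of values by sample shows 5 further members that were higher with both drugs in both lines. Across all members, DAC in HL-60 raised 12 of 42 (28.6%) and lowered 1, where 11.6% of the 17046 genes tested rose and 12.6% fell. The median log2 change was 0.028 over the members and 0.00064 over all genes, and 29 members lay above 0. NTX-301 in HL-60 raised 18 members and lowered 6, where 18.3% of all genes rose and 19.2% fell. The median was 0.035 over the members and 0.00082 over all genes. Centring each sample on its median changed this split to 15 higher and 11 lower, with a median of 0.0074. Without DMSO replicate 2 the median was 0.011, and without DAC replicate 2 the DAC median was 0.044.

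With DAC in MOLM-13, the contrast behind the choice, 22 of the 42 members other than DNASE2 (52.4%) were called higher and 3 lower. Of the 17475 genes, 15.4% were called higher and 21.2% lower. The median was 0.13 over those 42 members (0.14 with DNASE2) and 0.0013 over all genes. With NTX-301 in MOLM-13, 19 of the 42 members other than DNASE2 (45.2%) rose and 5 fell, where 20.3% of all genes rose and 24.8% fell. Their median was 0.077, against 0.0034 over all genes. With DNASE2 the count was 20 of 43 and the median 0.086. Because calls are more common among genes of higher level, the members were also set beside genes with a mean of at least 8. There 46.5% of 43 members, with DNASE2 counted, rose with NTX-301 in MOLM-13, and 20.7% of 10982 genes did. In HL-60 37.8% of 37 members and 20.5% of 10339 genes rose, and DNASE2 lies below that level there. Of the same genes, 11.6% of members and 38.4% of all fell in MOLM-13, and 16.2% and 29.3% in HL-60. After quantile normalization the splits in MOLM-13, with DNASE2 counted, were 28 higher and 0 lower with DAC and 24 higher and 2 lower with NTX-301. Without DMSO replicate 2 or 3 the count lower with DAC was also 0.

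In the same MOLM-13 samples the 4 listed monocyte and macrophage markers described here were each called higher with either drug. Their summed linear value was 92346 to 97491 with DMSO, 157721 to 171169 with DAC and 102384 to 107689 with NTX-301. LYZ, which encodes lysozyme, was higher by 0.78 with DAC and 0.12 with NTX-301, and ITGAM, an integrin of myeloid cells, by 0.64 and 0.71. In HL-60 the 3 listed markers summed to 5078 to 5245 with DMSO, 6015 to 6304 with DAC and 4888 to 5089 with NTX-301. The single genes there did not all follow that sum: with NTX-301 CSF1R rose by 0.42 and ITGAM by 0.43 while LYZ fell by 0.07, and with DAC LYZ alone of the 3 rose, by 0.25.

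The 6 granulocyte precursor markers summed to 530358 to 564067 with DMSO, 529180 to 530629 with DAC and 410555 to 420501 with NTX-301 in HL-60. With NTX-301 5 of the 6 fell there, where 19.2% of all genes fell. In MOLM-13 they summed to 200555 to 209062 with DMSO, 218092 to 240693 with DAC and 199452 to 218039 with NTX-301. There 4 of the 6 were higher with DAC, among them MPO (0.72) and CEBPE (0.66), and with NTX-301 3 were higher and 1 lower. Markers of other cell types also moved in MOLM-13. NTX-301 raised the 2 listed lymphoid markers (NKG7 by 0.37, CD3D by 0.28) and the 2 stromal ones (COL1A1 by 0.22, PDGFRB by 0.12). DAC raised NKG7 (0.27) and COL1A1 (0.17) of these. Neither drug moved the 2 listed erythroid and megakaryocytic markers past the threshold. Of FLT3, HOXA9 and MEIS1, DAC lowered all 3, and NTX-301 raised 1 and lowered 1. The part of these markers in the lysosomal changes was not tested, and in bulk RNA more cells of a type and more RNA per cell cannot be told apart.

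**Figure D2:**
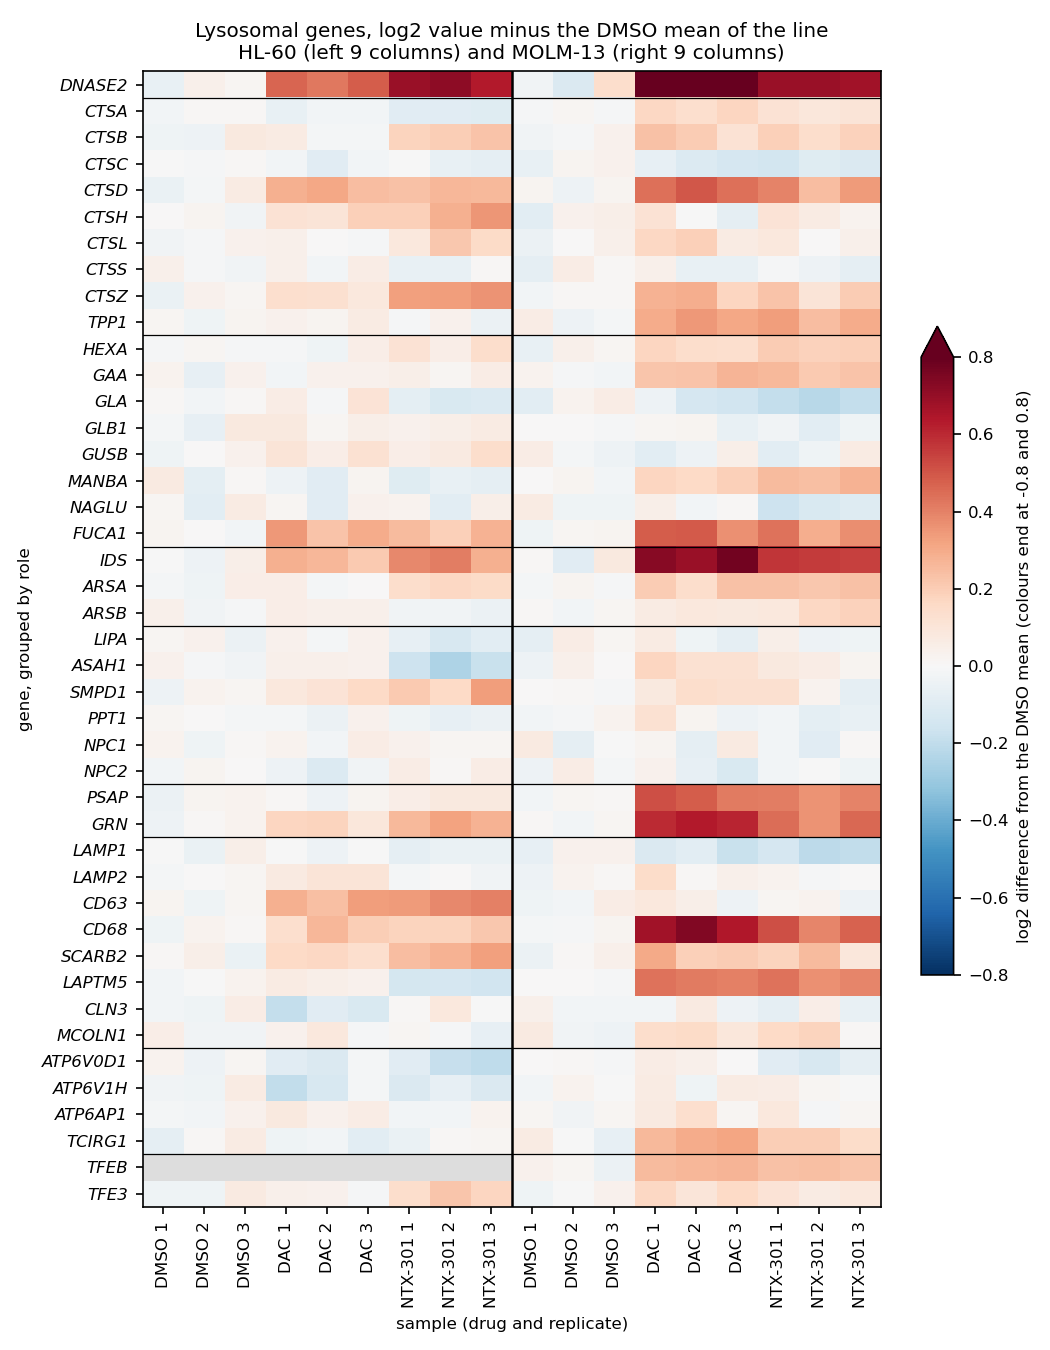
Log2 value of each of the 43 listed genes in every sample minus the DMSO mean of its line (colour, in log2 units), with genes grouped by role and samples by line, drug and replicate. Grey marks TFEB, which is not listed for HL-60, and the red rows of MOLM-13 include IDS, PSAP, GRN, CD68 and LAPTM5.

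**Figure D3:**
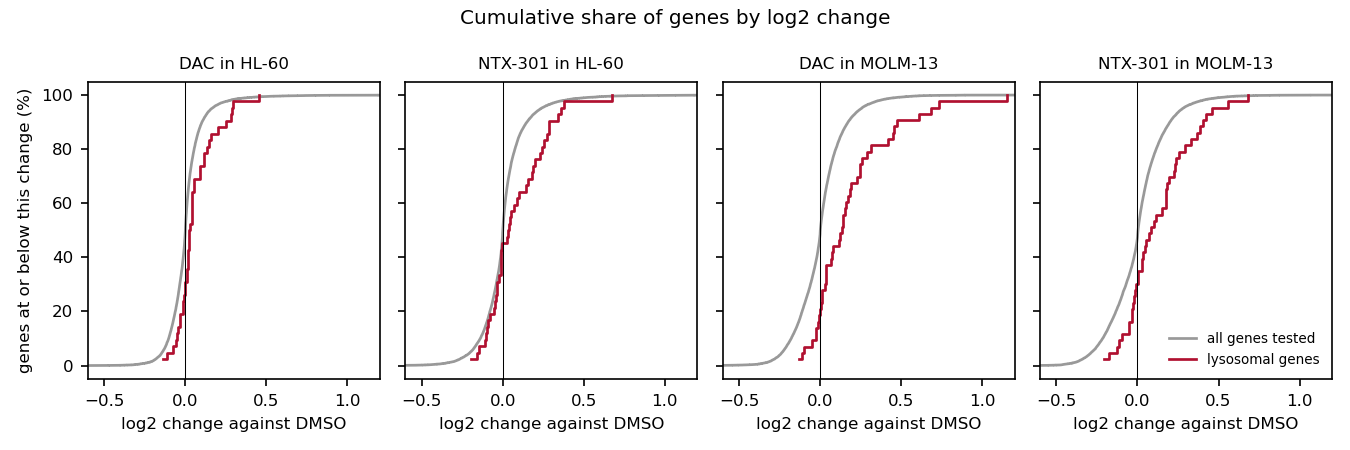
Cumulative percentage of genes (vertical axis) at or below each log2 change against DMSO (horizontal axis) for all genes tested and for the lysosomal genes, in each drug and line. The curve of the lysosomal genes lies to the right of that of all genes most clearly in MOLM-13. Their medians there, with DNASE2 counted, were 0.14 with DAC and 0.086 with NTX-301.

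Among the proteases, CTSD (cathepsin D, an aspartic protease) was higher with both drugs in both lines. Its log2 values in HL-60 were 12.79, 12.83 and 12.91 with DMSO, 13.13, 13.15 and 13.09 with DAC, and 13.08, 13.11 and 13.10 with NTX-301. DAC raised it by 0.28 ± 0.028 (limma adjusted p = 7.41e-06, n = 3) and NTX-301 by 0.25 ± 0.028 (adjusted p = 6.26e-06). In MOLM-13 they were 12.80, 12.74 and 12.80 with DMSO, 13.22, 13.28 and 13.22 with DAC, and 13.18, 13.03 and 13.12 with NTX-301. The rise with NTX-301 there was 0.33 ± 0.036 (adjusted p = 2.30e-05), and the DAC difference was 0.45. The drug groups did not overlap with DMSO in either line.

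CTSZ (cathepsin Z, a carboxypeptidase) had log2 values in HL-60 of 8.67, 8.76 and 8.74 with DMSO, 8.86, 8.85 and 8.81 with DAC, and 9.05, 9.06 and 9.08 with NTX-301. NTX-301 raised it by 0.34 ± 0.036 against DMSO and by 0.22 ± 0.036 against DAC (limma adjusted p = 0.000319, n = 3), and its 3 samples lay above all others. CTSB (cathepsin B, a cysteine protease) had values of 10.18, 10.17 and 10.29 with DMSO, 10.28, 10.20 and 10.20 with DAC, and 10.39, 10.41 and 10.44 with NTX-301. The DMSO and DAC samples overlapped, and NTX-301 lay above both, by 0.20 against DMSO and 0.19 against DAC. In MOLM-13 NTX-301 raised CTSZ by 0.17 and CTSB by 0.18.

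CTSC, the cathepsin that activates granule proteases, went the other way in MOLM-13. Its values were 14.14, 14.22 and 14.23 with DMSO, 14.13, 14.09 and 14.06 with DAC, and 14.05, 14.10 and 14.08 with NTX-301. It fell by 0.12 with NTX-301 (log2 change -0.12 ± 0.029, limma adjusted p = 0.00629), and after quantile normalization the change was -0.00796 and not called. TPP1, a tripeptidyl peptidase, rose by 0.29 with NTX-301 in MOLM-13. Of the 9 proteases tested, 5 rose and 1 fell with NTX-301 in each line, where 18.3% of all genes rose and 19.2% fell in HL-60, and in MOLM-13 20.3% rose and 24.8% fell. With DAC in HL-60 3 rose (CTSD, CTSH and CTSZ), where 11.6% of all genes did. The calls of CTSH (0.135) and CTSZ (0.116) were each lost in 6 of 17 alternatives, among them quantile normalization (0.107 and 0.0884). CTSS, the cathepsin of antigen processing, passed the test in none of the 6 comparisons within lines.

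The glycosidases and sulfatases, which strip sugars and sulfates from glycans, were led by IDS and FUCA1. IDS (iduronate 2-sulfatase, which starts the breakdown of heparan and dermatan sulfate) had values in HL-60 of 10.04, 10.00 and 10.09 with DMSO, 10.33, 10.31 and 10.25 with DAC, and 10.43, 10.45 and 10.33 with NTX-301. DAC raised it by 0.25 ± 0.038 (limma adjusted p = 0.000312, n = 3) and NTX-301 by 0.36 ± 0.038 (adjusted p = 4.77e-06). In MOLM-13 the values were 10.58, 10.48 and 10.65 with DMSO, 11.30, 11.26 and 11.34 with DAC, and 11.14, 11.13 and 11.12 with NTX-301. Neither drug group overlapped with DMSO. NTX-301 raised IDS by 0.56 ± 0.042 (1.47-fold, adjusted p = 2.01e-06), and the DAC difference was 0.73.

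FUCA1 (alpha-L-fucosidase) had values in HL-60 of 10.16, 10.14 and 10.12 with DMSO, 10.49, 10.37 and 10.44 with DAC, and 10.39, 10.33 and 10.42 with NTX-301. DAC raised it by 0.29 ± 0.036 (limma adjusted p = 4.97e-05, n = 3) and NTX-301 by 0.24 ± 0.036. In MOLM-13 the values were 11.65, 11.70 and 11.71 with DMSO, 12.17, 12.18 and 12.05 with DAC, and 12.12, 11.98 and 12.06 with NTX-301. All drug samples lay above all DMSO samples in both lines, and the rise with NTX-301 in MOLM-13 was 0.37 ± 0.041.

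Other enzymes of these classes moved in both directions in MOLM-13. MANBA (beta-mannosidase) rose by 0.26 with NTX-301, GAA (acid alpha-glucosidase) by 0.24, ARSA (arylsulfatase A) by 0.22, HEXA (a beta-hexosaminidase subunit) by 0.19 and ARSB (arylsulfatase B) by 0.15. GLA (alpha-galactosidase A) had values of 12.39, 12.50 and 12.53 with DMSO, 12.43, 12.34 and 12.32 with DAC, and 12.28, 12.25 and 12.28 with NTX-301. NTX-301 lay below DMSO without overlap and lowered it by 0.20 (log2 change -0.20 ± 0.038, limma adjusted p = 0.00101). NAGLU, which removes N-acetylglucosamine, had values of 10.64, 10.54 and 10.54 with DMSO, 10.62, 10.55 and 10.58 with DAC, and 10.41, 10.45 and 10.47 with NTX-301. It fell by 0.13 with NTX-301 (log2 change -0.13), a call that was lost without DMSO replicate 1 (-0.0937) and without NTX-301 replicate 1 (-0.11).

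In HL-60 NTX-301 raised 3 and lowered 1 of the 8 glycosidases and raised 2 of the 3 sulfatases, IDS and ARSA (all genes: 18.3% higher, 19.2% lower). Of these calls HEXA was lost without NTX-301 replicate 3 (0.0818) and GUSB likewise (0.062), GLA without NTX-301 replicate 2 (-0.0978), and ARSA after quantile normalization (0.0954). In MOLM-13 it raised 4 and lowered 2 of the 8, and raised all 3 sulfatases listed (all genes: 20.3% higher, 24.8% lower). GLB1 (beta-galactosidase) passed the test in no comparison.

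With NTX-301 in MOLM-13 none of the 6 genes of lipid breakdown and export was called by limma, with log2 changes from -0.05 to 0.05. Of all genes there, 20.3% rose and 24.8% fell. In HL-60 NTX-301 raised 1 and lowered 2 of the 6, where 18.3% of all genes rose and 19.2% fell. With DAC in HL-60 none was called, where 11.6% of all genes rose and 12.6% fell. ASAH1 (acid ceramidase) had values there of 11.08, 11.04 and 11.02 with DMSO, 11.09, 11.09 and 11.08 with DAC, and 10.88, 10.80 and 10.87 with NTX-301. The NTX-301 samples lay below all others, by 0.20 against DMSO (log2 change -0.20 ± 0.028, limma adjusted p = 6.69e-05) and by 0.24 against DAC (-0.24 ± 0.028). SMPD1 (acid sphingomyelinase) rose by 0.23 ± 0.044 with NTX-301 in HL-60. NPC1, the cholesterol exporter, and PPT1, a thioesterase, passed the test in no comparison.

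GRN and PSAP encode precursors that are cut in the lysosome, GRN into granulins and PSAP into the saposins that activate lipid hydrolases. GRN had values in MOLM-13 of 13.78, 13.75 and 13.79 with DMSO, 14.37, 14.41 and 14.38 with DAC, and 14.22, 14.13 and 14.23 with NTX-301, and the 3 groups did not overlap. NTX-301 raised it by 0.42 ± 0.028 (limma adjusted p = 8.43e-07), and the DAC difference was 0.61. In HL-60 the values were 11.84, 11.89 and 11.91 with DMSO, 12.05, 12.06 and 11.97 with DAC, and 12.14, 12.20 and 12.16 with NTX-301, and here NTX-301 was the highest group. The rises were 0.14 ± 0.029 with DAC and 0.29 ± 0.029 with NTX-301. PSAP rose by 0.39 ± 0.028 with NTX-301 in MOLM-13. In HL-60 its values were 14.46, 14.53 and 14.54 with DMSO, 14.52, 14.47 and 14.53 with DAC, and 14.56, 14.59 and 14.59 with NTX-301, where the rise of 0.07 with NTX-301 was lost without DMSO replicate 1 (0.0458), NTX-301 replicate 2 (0.0646) or NTX-301 replicate 3 (0.0626).

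Of the 8 membrane proteins, 3 rose and 1 fell with NTX-301 in each line, where 18.3% of all genes rose and 19.2% fell in HL-60, and in MOLM-13 20.3% rose and 24.8% fell. With DAC in HL-60 4 rose and 1 fell, where 11.6% of all genes rose and 12.6% fell. CD68, a heavily glycosylated membrane protein of monocytes and macrophages, had values in MOLM-13 of 11.54, 11.55 and 11.58 with DMSO, 12.23, 12.30 and 12.20 with DAC, and 12.07, 11.95 and 12.03 with NTX-301. NTX-301 raised it by 0.46 ± 0.037 (limma adjusted p = 2.73e-06), and the DAC difference was 0.68. In HL-60 the values were 6.76, 6.82 and 6.80 with DMSO, 6.93, 7.06 and 6.99 with DAC, and 6.97, 6.97 and 7.01 with NTX-301, a rise of 0.20 with DAC and 0.19 with NTX-301. The drug groups lay above DMSO in both lines.

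LAPTM5, a lysosomal membrane protein of blood cells, had values in MOLM-13 of 14.09, 14.09 and 14.08 with DMSO, 14.52, 14.50 and 14.49 with DAC, and 14.52, 14.45 and 14.48 with NTX-301. NTX-301 raised it by 0.40 ± 0.023 (limma adjusted p = 3.73e-07). In HL-60 they were 13.51, 13.53 and 13.56 with DMSO, 13.60, 13.58 and 13.57 with DAC, and 13.39, 13.40 and 13.38 with NTX-301. There NTX-301 was the lowest group and lay 0.14 below DMSO (log2 change -0.14 ± 0.020, adjusted p = 5.83e-05).

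CD63, a tetraspanin of lysosomes and secreted vesicles, rose in HL-60. There its values were 11.87, 11.81 and 11.86 with DMSO, 12.13, 12.09 and 12.18 with DAC, and 12.19, 12.23 and 12.25 with NTX-301, and the groups did not overlap. DAC raised it by 0.29 ± 0.028 (limma adjusted p = 6.89e-06) and NTX-301 by 0.38 ± 0.028 (adjusted p = 1.79e-07). In MOLM-13 they were 12.92, 12.93 and 13.01 with DMSO, 13.04, 13.00 and 12.91 with DAC, and 12.97, 12.98 and 12.91 with NTX-301. Those groups overlapped, and the log2 changes were 0.03 ± 0.037 with DAC and 0.01 ± 0.037 with NTX-301. After quantile normalization both were called higher, by 0.116 (limma adjusted p = 0.0181) and 0.104 (adjusted p = 0.025), and after median centring both lay below 0.

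LAMP1, a major protein of the lysosomal membrane, had values in MOLM-13 of 13.70, 13.80 and 13.80 with DMSO, 13.65, 13.68 and 13.59 with DAC, and 13.63, 13.56 and 13.57 with NTX-301. It fell by 0.18 with NTX-301 (log2 change -0.18 ± 0.034, limma adjusted p = 0.00123), and after quantile normalization the change was -0.0664 and not called. CLN3, a lysosomal membrane protein mutated in juvenile Batten disease, was the only member called lower with DAC in HL-60. Its values there were 10.08, 10.07 and 10.16 with DMSO, 9.91, 10.01 and 9.98 with DAC, and 10.11, 10.19 and 10.10 with NTX-301. The change of -0.14 ± 0.039 (adjusted p = 0.0196) was not called without DMSO replicate 3 (-0.106) or without DAC replicate 1 (-0.107). SCARB2, the receptor that carries glucocerebrosidase to lysosomes, rose by 0.16 with DAC and 0.29 with NTX-301 in HL-60 and by 0.17 with NTX-301 in MOLM-13. MCOLN1, a lysosomal calcium channel, passed the test in no comparison.

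Of the 4 subunits of the proton pump, none rose in HL-60, where 11.6% of all genes rose with DAC and 18.3% with NTX-301. At those shares, none among so few genes is not unusual. ATP6V0D1 had values in HL-60 of 11.34, 11.27 and 11.33 with DMSO, 11.22, 11.20 and 11.30 with DAC, and 11.22, 11.13 and 11.11 with NTX-301, and it fell by 0.16 with NTX-301 (log2 change -0.16 ± 0.036, limma adjusted p = 0.00314). In MOLM-13 its values were 12.26, 12.27 and 12.25 with DMSO, 12.32, 12.30 and 12.26 with DAC, and 12.17, 12.13 and 12.19 with NTX-301. The change with NTX-301 was -0.10 ± 0.026, and -0.0269 and not called after quantile normalization. TCIRG1, the pump's a3 subunit, rose by 0.18 ± 0.032 with NTX-301 in MOLM-13, where the DAC difference was 0.29. ATP6V1H and ATP6AP1 passed the test in no comparison.

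Of the transcription factors, TFEB rose with NTX-301 in MOLM-13 and TFE3 in HL-60, and both were called higher with DAC in MOLM-13. TFEB in MOLM-13 had values of 9.73, 9.71 and 9.65 with DMSO, 9.95, 9.96 and 9.97 with DAC, and 9.93, 9.94 and 9.92 with NTX-301. Both drug groups lay above DMSO. The rise with NTX-301 was 0.23 ± 0.037 (limma adjusted p = 0.000321), and the DAC difference was 0.26. TFE3 had values in HL-60 of 8.71, 8.71 and 8.82 with DMSO, 8.79, 8.78 and 8.74 with DAC, and 8.89, 8.97 and 8.92 with NTX-301. Only NTX-301 lay apart from DMSO there, with a rise of 0.18 ± 0.040 (adjusted p = 0.00276). In MOLM-13 they were 9.81, 9.84 and 9.88 with DMSO, 10.01, 9.94 and 10.00 with DAC, and 9.95, 9.91 and 9.93 with NTX-301. The DAC difference was 0.14, a call that was lost with median centring (0.107). The NTX-301 change of 0.09 ± 0.038 missed the threshold (adjusted p = 0.0859), and passed it with no trend in the fit (adjusted p = 0.0302).

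**Figure D4:**
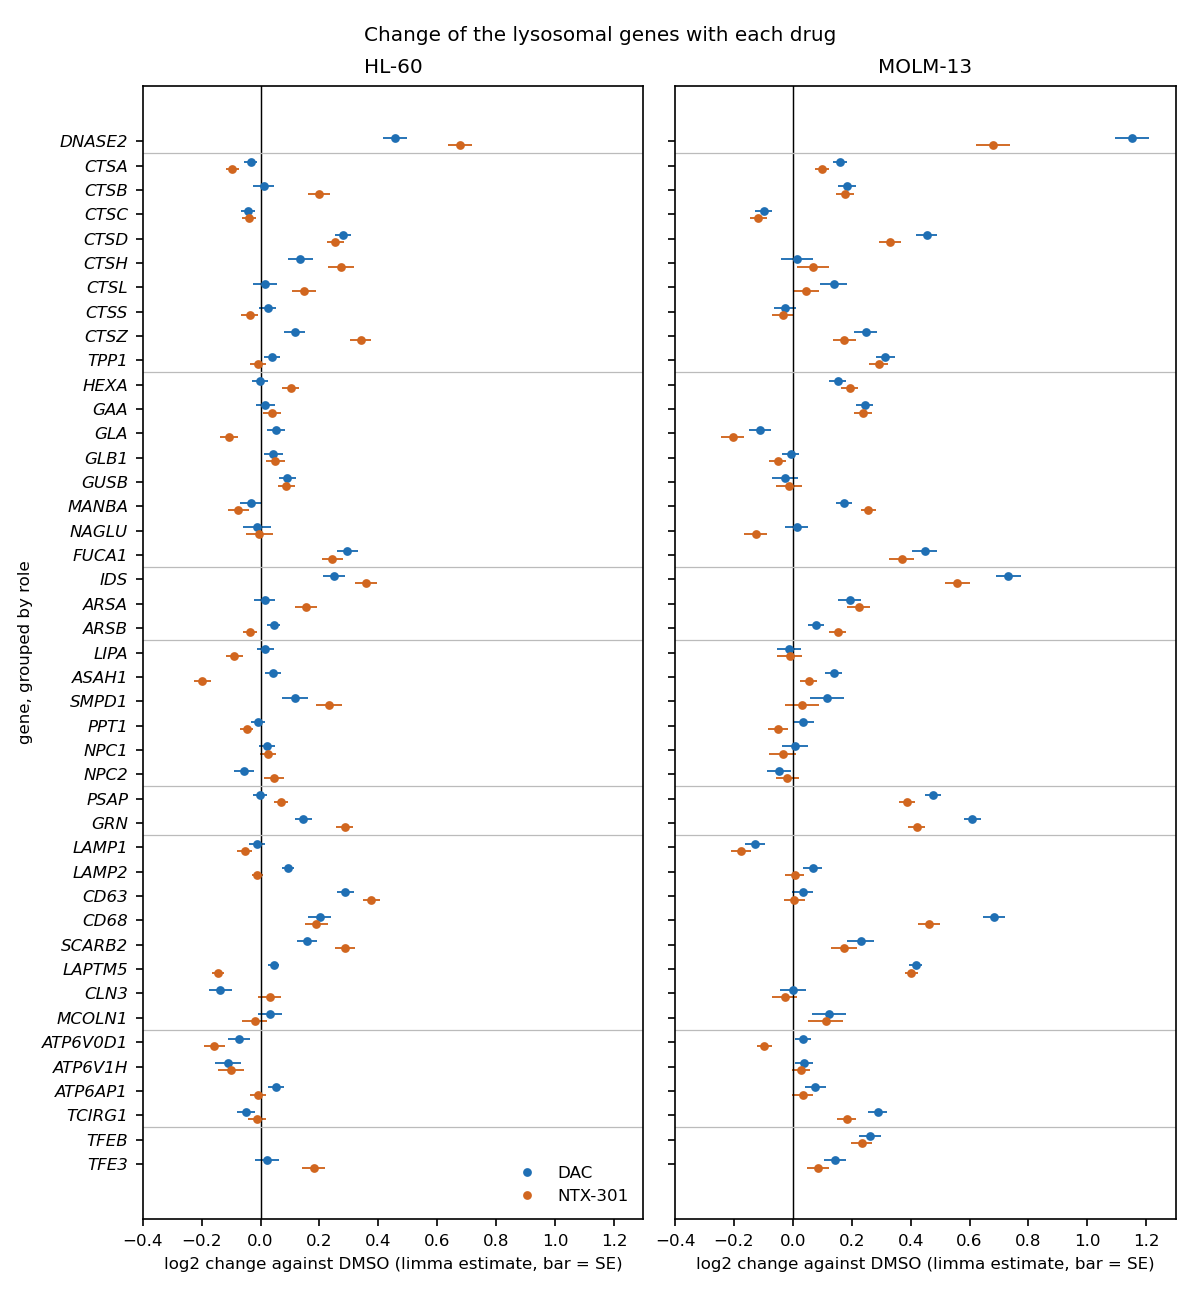
Log2 change against DMSO (horizontal axis; points are limma estimates and bars the SE, n = 3 per group) of each gene with DAC and with NTX-301, in HL-60 (left) and MOLM-13 (right), with genes grouped by role. DNASE2 lies farthest right in both lines, and LAPTM5 with NTX-301 lies at -0.14 in HL-60 and 0.40 in MOLM-13.

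The drugs were then compared with each other. In HL-60, 15 of 42 members were higher with NTX-301 than with DAC and 6 lower, where 15.4% of all genes were higher and 15.0% lower, and the median was 0.0049. This split turned to 10 higher and 13 lower when each sample was centred on its median, with a median of -0.024, and 8 members were higher without DAC replicate 2 and 9 without NTX-301 replicate 3. Higher with NTX-301 were DNASE2, CTSZ and CTSB as given above, and GRN (0.14), SCARB2 (0.13), TFE3 (0.16), ARSA (0.14) and CLN3 (0.17), and these calls held in the alternatives tried. Lower were ASAH1, LAPTM5 (log2 change -0.19 ± 0.020, limma adjusted p = 8.36e-06), GLA (-0.16) and LAMP2 (-0.10), a second major membrane protein. GLA had values in HL-60 of 11.18, 11.15 and 11.18 with DMSO, 11.23, 11.16 and 11.28 with DAC, and 11.09, 11.05 and 11.06 with NTX-301, the lowest group. CTSD differed by -0.03 (95% interval -0.09 to 0.03) and CD68 by -0.01 (-0.10 to 0.07), neither past the threshold.

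In MOLM-13, of the 42 members other than DNASE2, none was called higher and 5 (11.9%) lower with NTX-301 than with DAC, where 3.01% of all genes were higher and 4.41% lower. Their median was -0.043, against 0.00012 over all genes, and 8 lay above 0. DNASE2 is left out of these counts because it had been chosen on the same DAC samples. The 5 were CD68 (log2 change -0.22 ± 0.037, limma adjusted p = 0.00573), GRN (-0.19 ± 0.028, adjusted p = 0.00301), IDS (-0.17), NAGLU (-0.14) and ATP6V0D1 (-0.13). The call of NAGLU was lost in 14 of 17 alternatives and that of IDS in 6 of 17. Both were lost without NTX-301 replicate 1 (-0.123 and -0.175), and the call of ATP6V0D1 without NTX-301 replicate 2 (-0.115). With that replicate left out 3 members were lower, and after quantile normalization 1 was higher and 5 lower, with DNASE2 counted. CTSD differed by -0.13 (95% interval -0.20 to -0.05, adjusted p = 0.0587) and PSAP by -0.09 (-0.15 to -0.02, adjusted p = 0.0898), both past no threshold after adjustment. CTSD passed it with a mean of at least 5 (adjusted p = 0.0295) or without NTX-301 replicate 1 (adjusted p = 0.0283), and PSAP without DAC replicate 3 (adjusted p = 0.0275).

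**Figure D5:**
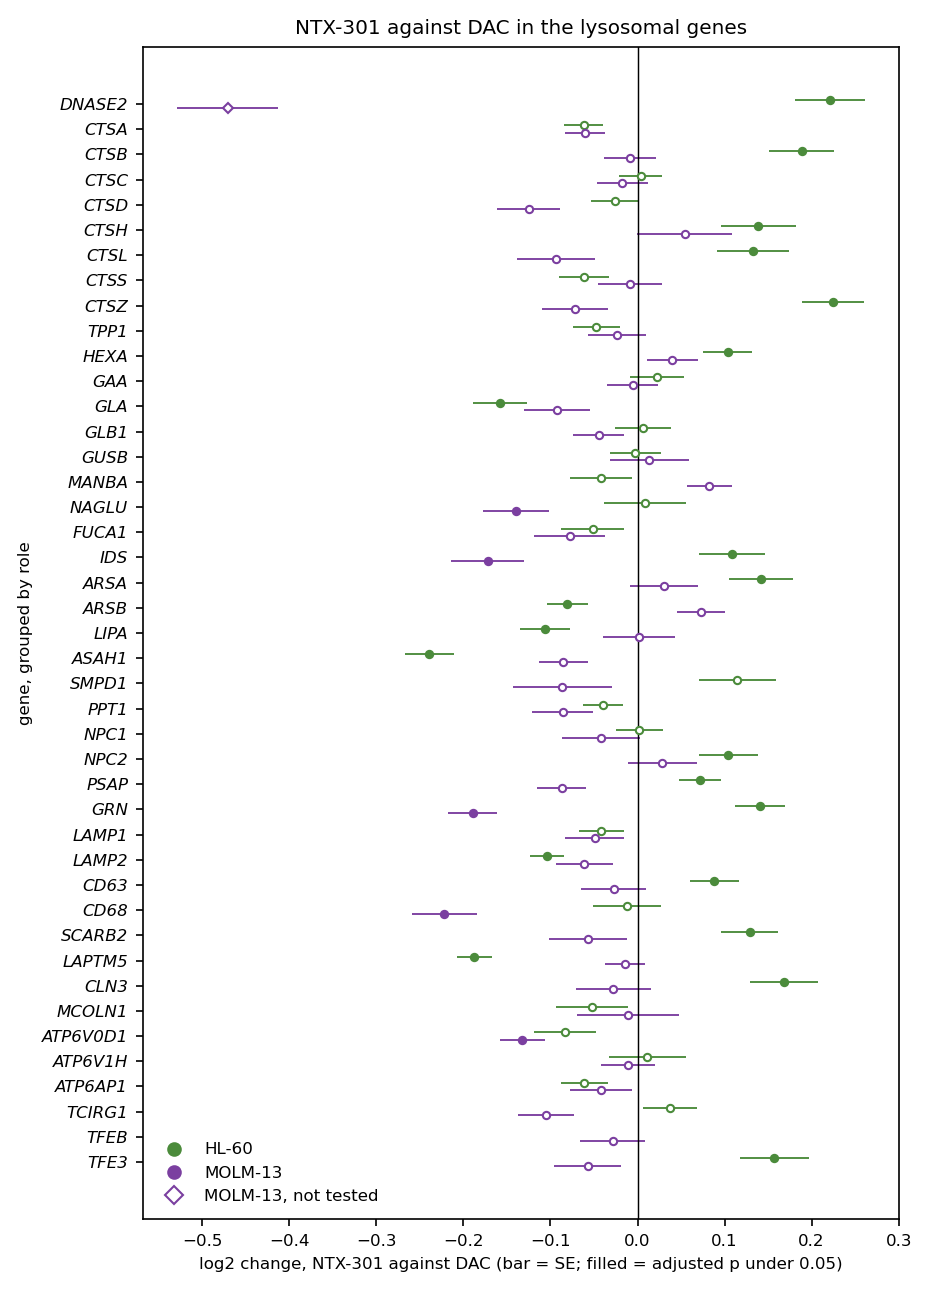
Log2 change between NTX-301 and DAC (horizontal axis; positive means higher with NTX-301; bars are SE, n = 3 per group) of each gene in HL-60 and MOLM-13, with filled points for an adjusted p under 0.05 and an open diamond for DNASE2 in MOLM-13, which is given with no test. DNASE2 lies at 0.22 in HL-60 and -0.47 in MOLM-13.

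A difference between the lines in the change with NTX-301 was tested over the 15474 genes measured in both. It was more positive in MOLM-13 for 12 of 42 members and less positive for 5, where 17.6% of all genes were called higher and 22.4% lower, and after quantile normalization the split was 18 and 2. The count of 5 was 2 without HL-60 DMSO replicate 1, HL-60 NTX-301 replicate 3, MOLM-13 DMSO replicate 2 or MOLM-13 NTX-301 replicate 2. LAPTM5 differed most, by 0.55 ± 0.028 (limma adjusted p = 9.05e-11), and its change had opposite signs in the lines. MANBA differed by 0.33, PSAP by 0.32, TPP1 by 0.30 and CD68 by 0.27, all more positive in MOLM-13. CD63 differed by -0.37 ± 0.048 (adjusted p = 6.01e-06). The median difference was 0.030 over the members. With DAC, which includes the contrast behind the choice, the median difference was 0.11 and is given with no test. It was 0.48 for CD68, IDS and PSAP, 0.47 for GRN and -0.25 for CD63.

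Genes of the same pathway outside the list were counted from textbook lists drawn up with earlier results of these data known. With NTX-301, the shares of all genes to read them against are 20.3% higher and 24.8% lower in MOLM-13 and 18.3% higher and 19.2% lower in HL-60. Among genes with a mean of at least 8 they are 20.7% and 38.4% in MOLM-13 and 20.5% and 29.3% in HL-60. Among other lysosomal hydrolases and activators, 15 of 32 tested rose and 5 fell with NTX-301 in MOLM-13 (median 0.06), and 7 rose and 7 fell of 30 in HL-60, there near the shares of all genes. PLD3, a lysosomal exonuclease of single-stranded nucleic acids, rose by 0.48 in MOLM-13 (limma adjusted p = 2.21e-07) and did not pass the test in HL-60 (-0.09). GM2A, the GM2 activator, rose by 0.23, and MAN2B1, an alpha-mannosidase, by 0.22.

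Among other V-ATPase subunits, 2 rose and 5 fell of 16 with NTX-301 in MOLM-13, and 1 rose and 5 fell in HL-60 (all genes: 20.3% and 24.8% in MOLM-13, 18.3% and 19.2% in HL-60). Of genes with a mean of at least 8, 38.4% fell in MOLM-13 and 29.3% in HL-60. ATP6V0B had log2 changes of -0.23 and -0.20 in the 2 lines. Among other lysosomal membrane proteins, 10 rose and 4 fell of 27 in MOLM-13 and 5 rose and 7 fell of 26 in HL-60. CD82, a tetraspanin, rose by 0.51 in MOLM-13 and by 1.13 in HL-60 (limma adjusted p = 1.12e-10).

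Of 21 genes of mannose 6-phosphate tagging and sorting, 4 rose and 7 fell with NTX-301 in MOLM-13, and of 20 in HL-60 2 rose and 9 fell. SORL1, a sorting receptor, rose by 0.59 in MOLM-13, and VPS35, a retromer subunit, had log2 changes of -0.18 in MOLM-13 and -0.12 in HL-60. Of 27 genes that control TFEB and TFE3, 2 rose and 9 fell in MOLM-13 (all genes: 20.3% and 24.8%), and 1 rose and 11 fell in HL-60 (18.3% and 19.2%). Among genes with a mean of at least 8, the share that fell was 38.4% in MOLM-13 and 29.3% in HL-60. MLST8, a subunit of the mTOR complexes, had changes of -0.28 and -0.45, and LAMTOR2, part of the scaffold that holds mTORC1 on the lysosome, of -0.23 and -0.28. Of 36 autophagy genes, 12 were higher and 8 lower in MOLM-13 (all genes: 20.3% and 24.8%), where GABARAPL1, an ATG8 family member, rose by 0.38 and ATG3 changed by -0.24.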

How the data were processed

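RNA from HL-60 and MOLM-13 cells was sequenced from stranded total RNA libraries, per the labels' protocols. The submitters' processing notes name FastQC, Trimmomatic 0.38, HISAT2, StringTie and hg19. The authors deposited 1 normalized log2 value per gene and sample, read as log2 from the values. The method of normalization is not given in the sources used here, and the depth per sample is unknown.

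For each line, limma 3.58.1 (R 4.3.3) was run on its 9 samples' log2 values (a mean per group, eBayes with trend, two-sided). A gene entered the test when 3 or more samples reached a linear value of 1, which left 17046 genes for HL-60 and 17475 for MOLM-13. Benjamini-Hochberg adjustment covered every gene of a fit, with a threshold of 0.05, and 1 fit of all 18 samples compared the lines. The steps were tested on simulated data. "Rose", "fell" and "called" mean past that threshold.

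The members, lists and named-gene rule were chosen with earlier results of these data known. Values in every sample are given for DNASE2, TFEB, TFE3 and, per comparison, up to 3 members with the highest and 3 with the lowest change among those called without overlap between groups. Other members named within a role, PSAP's values by sample and the selection from the other lists (up to 3 genes per list by lowest adjusted p with NTX-301 in MOLM-13) are examples. Alternatives were no trend, no filter, a mean of at least 5, 1 added to linear values, median centring, quantile normalization, only the groups compared, a replicate block and leaving out each sample. RefSeq promoters (GRCh38.p14) were used for sequence only and joined to the values by symbol. One marker gene is not reported here, and the marker counts and sums leave it out.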

Additional observations from a re-analysis of the deposited data

Results flagged for a closer look

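The change with NTX-301 differed between MOLM-13 and HL-60, by limma's test of the difference, for 17 lysosomal genes. It was higher in MOLM-13 for 12 of the 42 members tested (28.6%) and lower for 5 (11.9%). Over the 15474 genes tested in both lines, 17.6% were called higher and 22.4% lower. The 12 differences were 0.55 for LAPTM5, 0.33 for MANBA, 0.32 for PSAP, 0.30 for TPP1, 0.27 for CD68, 0.25 for ASAH1, 0.20 for IDS, 0.20 for GAA, 0.19 for CTSA, 0.19 for TCIRG1, 0.19 for ARSB and 0.13 for GRN on the log2 scale. The 5 lower ones were -0.37 for CD63, -0.20 for CTSH, -0.20 for SMPD1, -0.17 for CTSZ and -0.12 for LAMP1. All 12 higher calls and that of CD63 held in every alternative tried, and the other 4 were lost without MOLM-13 NTX-301 replicate 2 (CTSH -0.203, SMPD1 -0.20, CTSZ -0.128 and LAMP1 -0.11). The stated doses also differ between the lines, and dose and line cannot be told apart.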

How the results depend on the processing

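Of the calls of members by limma, 9 of 13 with DAC and 17 of 24 with NTX-301 in HL-60 held in every alternative tried, as did 20 of 26 and 20 of 25 in MOLM-13, 12 of 21 and 3 of 6 between the drugs in HL-60 and MOLM-13, and 13 of 17 between the lines. These and the counts that follow include DNASE2. In MOLM-13 it is among the calls counted as held with DAC, with NTX-301 and between the drugs. It was chosen on DAC and DMSO samples of that line, so its calls there are not tests. The calls that held between the drugs in MOLM-13 were those of DNASE2, CD68 and GRN. Median centring and quantile normalization moved the median of all genes by at most 0.038. With centring, the members' median was 0.0074 (11 lower) with NTX-301 in HL-60, -0.024 (13 lower) for NTX-301 against DAC there, 0.10 and 0.056 with DAC and NTX-301 in MOLM-13, and 0.077 for the line difference with DAC. With quantile normalization, the count lower was 0 with DAC and 2 with NTX-301 in MOLM-13 and 2 for the NTX-301 line difference. The medians were 0.13 with NTX-301 in MOLM-13 and 0.095 and 0.14 for the line differences with NTX-301 and DAC. One member was higher with NTX-301 than with DAC in MOLM-13 under quantile normalization (1) and with no trend (1). The cause of these moves was not tested.

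Changes near 0 changed sign. With quantile normalization they were -0.000286 for TFE3 with DAC in HL-60, 0.00156 for CTSD (NTX-301 against DAC in HL-60) and -0.00129 for the DNASE2 line difference with NTX-301. With centring they were -0.004 and -0.0246 for CD63 with DAC and NTX-301 in MOLM-13.

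Leaving out 1 sample at a time gave, with DAC in HL-60, 0 to 2 members lower and a median of 0.020 to 0.044, and with NTX-301 a median of 0.011 to 0.052. NTX-301 against DAC there had 8 to 15 higher. In MOLM-13, DAC had 0 to 3 lower and a median of 0.11 to 0.14, and NTX-301 against DAC 0 to 1 higher and 3 to 7 lower. The line difference with NTX-301 had 2 to 7 lower, and for DNASE2 it ranged from -0.0558 to 0.0759. CD63 with NTX-301 in MOLM-13 ranged from -0.01 to 0.0329, and CD68 for NTX-301 against DAC in HL-60 from -0.0449 to 0.0223.

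Deviations of samples with the same replicate number correlated from -0.057 to 0.12 among HL-60 samples and from -0.16 to 0.11 among those of MOLM-13. For samples with different numbers the ranges were -0.12 to 0.11 and -0.12 to 0.16. These ranges overlap, and whether the numbers mark paired wells is not known. With a replicate block, 13 members rose with DAC in HL-60, 21 were higher with DAC in MOLM-13, and NTX-301 against DMSO gave 18 higher and 6 lower (HL-60) or 20 higher and 5 lower (MOLM-13).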
